A study of Mus musculus with 6 samples.

Results

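Glycolysis and the response to low oxygen were followed through 39 genes, namely glucose and lactate transporters, glycolytic enzymes, regulators of glycolysis, hypoxia-inducible factors (HIFs), their oxygen sensors and their target genes. The genes were taken by symbol, 39 of 24732 symbols in the FPKM table, and all 39 were found there. They had been proposed with the contrast between control and CTCF knockdown in view, so their values are described here and no test is given for any of them. Of the 39 genes 37 had a mean of at least 1 FPKM (fragments normalized to the length of the transcript and the size of the library) over the samples, and Epas1 and Car9 did not.

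RNA-seq was carried out on cultured mouse female germline stem cells (FGSCs), with 3 control samples and 3 samples in which CTCF, a DNA-binding protein that organizes chromatin loops, was knocked down (shCTCF). All 6 samples were labelled strain C57BL/6 with more than 20 passages, and the culture medium for all of them was used on inactivated STO fibroblast feeders. According to the study's methods the cells came from ovaries of neonatal Ddx4-Cre; mT/mG mice, in which Cre is driven by a germ cell gene. The shCTCF cells were infected with a lentivirus that carried 1 short hairpin RNA against CTCF and were selected with puromycin. The labels do not say what the control cells received, nor whether the 3 samples of a group were separate cultures. The SD and SE therefore measure the spread between these samples, which may be technical, and the p-values below rest on the same spread. The oxygen level of the culture is not given in the sources used here.

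Glycolysis splits glucose into pyruvate in 10 enzymatic steps and yields ATP without oxygen, and lactate dehydrogenase then turns pyruvate into lactate, which leaves the cell through monocarboxylate transporters. HIF is a pair of an oxygen-sensitive alpha subunit, HIF-1 alpha or HIF-2 alpha (Epas1), and the constant partner ARNT. In oxygen, prolyl hydroxylases (Egln genes) mark the alpha subunit and VHL hands it over for degradation, and in low oxygen HIF stays and switches on most glycolytic genes together with genes for blood vessel growth, mitophagy and collagen synthesis. The mRNA of an alpha subunit therefore says little about its protein, which was not measured in these files.

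The targeted gene was checked first, on FPKM alone, since on counts Ctcf held 0 fragments in every sample. Ctcf was at 58.2, 56.1 and 53.5 FPKM in the controls and at 0.740, 0.550 and 0.629 FPKM in the shCTCF group, which was 98.9% lower (log2 difference -5.12, SE 0.09, limma adjusted p 1.1e-08). The total counts lay between 1686052 and 7044272 fragments per sample, and control replicate 2 was the smallest library. For all 37 members with at least 1 FPKM, control replicate 2 was either the highest (28 members) or the lowest (9 members) of the 3 controls, between 0.547 times (Gapdh) and 1.64 times (Adm) the mean of the other two. Without it each of the 37 members kept its direction, and the log2 difference of Gapdh went from -1.13 to -1.41, that of Bnip3l from -2.17 to -2.32 and that of Hif1a from 0.95 to 0.84.

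The cell type label was set against marker genes. Of 6 FGSC markers, Ddx4, Pou5f1, Dppa3, Gfra1 and Dazl were under 1 FPKM in every sample, and Ifitm3, which many cell types express, rose from at most 1.21 to at least 10.4 FPKM. The label is kept here as a name, and the markers that define it were thus absent or near 0. Of 11 genes known from mast cells 4 rose and 1 fell. Their summed level was 1593 to 1672 FPKM in the controls and 2366 to 2483 FPKM in the shCTCF group. Among those that rose, control and shCTCF means were 575 and 787 FPKM for Kit, 174 and 770 FPKM for Srgn and 4.25 and 87.2 FPKM for Hdc. Cpa3, the gene that fell, had means of 281 and 88.0 FPKM. Gata2 (501 and 560 FPKM) overlapped between the groups, and Fcer1a, Ms4a2, Mcpt4 and Tpsb2 were under 1 FPKM in all samples. Of 5 macrophage genes 4 rose, from a sum of 98.3 to 108 FPKM to a sum of 200 to 236 FPKM, with Csf1r under 1 FPKM in all. Of 13 feeder fibroblast genes 2 rose and 3 fell, with sums of 12.3 to 13.0 and 8.65 to 8.99 FPKM, and the collagen genes Col1a1, Col1a2, Col3a1 and Col5a2 were under 1 FPKM in all. All 5 granulosa cell genes were under 1 FPKM. These calls are from limma at an adjusted p under 0.05, which 73% of all genes passed. The part of other cells in the values below was not tested, and in bulk samples fewer cells of a type and less RNA per cell cannot be told apart.

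Most members were lower after CTCF knockdown. The 3 shCTCF values lay below all 3 control values for 28 of the 37 members (75.7%) and above them for 8 (21.6%), and for Bnip3 the groups overlapped. Over all 9976 genes with at least 1 FPKM these shares were 45.8% and 30.8%. The group means were at least 2-fold lower for 20 members (54.1%) and at least 2-fold higher for 2, Slc2a3 and Ndrg1 (5.41%), compared with 18.7% and 13.4% of all genes. Since the contrast was used to propose the members, nothing is read from the difference between these shares.

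The median log2 difference of the 37 members was -1.10 on the log2(FPKM + 1) scale, which understates differences of genes with low FPKM, and the median of all genes was -0.17. The latter moved to -0.0056 after the samples had been brought to a common median FPKM. With this scaling 27 members were below and 8 above the controls in all samples (38% and 37.5% of all genes), since Pfkp then overlapped and had a log2 difference of 0.050. The 2-fold differences then became 17 lower and 5 higher members (13.8% and 16.5% of all genes), the 5 being Slc2a3, Pfkfb3, Hif1a, P4ha2 and Ndrg1. The plot of log2 differences by role shows the contrast between the enzymes and the few members on the other side.

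**Figure D1:**
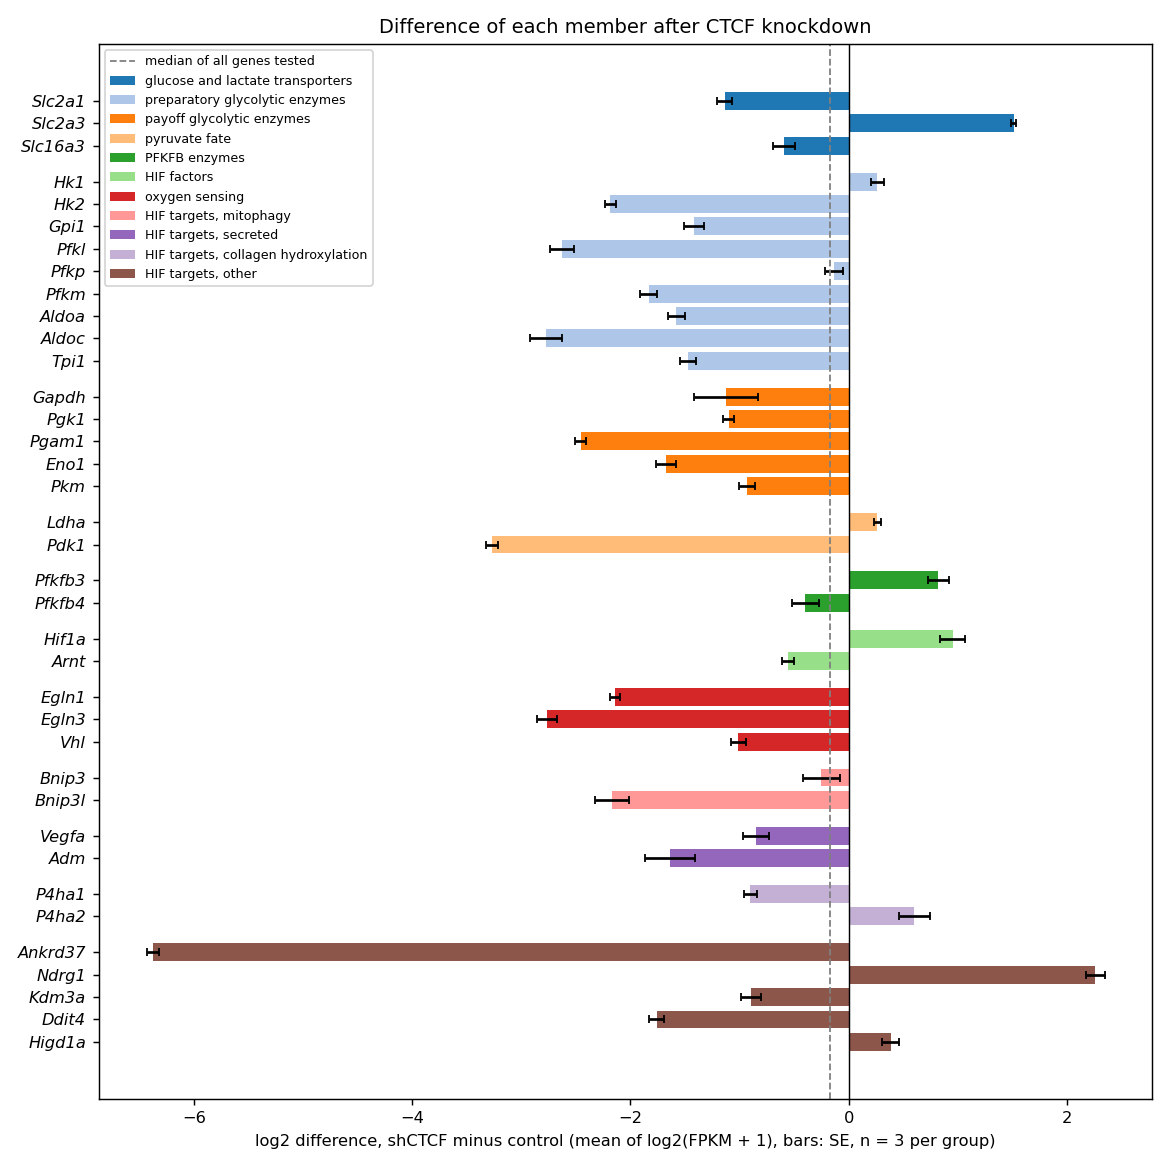
Log2 difference between shCTCF and control for each of the 37 members with a mean of at least 1 FPKM, grouped and coloured by role; bars give the difference of mean log2(FPKM + 1), error bars the SE (n = 3 per group), and the dashed line the median of all genes (-0.17). The 14 glycolytic enzymes, apart from Hk1, lie left of 0, Pfkp least (-0.13, and 0.050 after scaling to a common median), while Slc2a3 (1.51) and Ndrg1 (2.26) reach farthest to the right.

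Glucose enters these cells through facilitative transporters, and the pair among the members moved apart. Slc2a1 (GLUT1, the widespread basal transporter; mm9 chromosome 4, 118781350 to 118809934) was at 195, 223 and 191 FPKM in the controls and at 91.1, 92.9 and 90.2 FPKM in the shCTCF group. Slc2a3 (GLUT3, a transporter with high affinity for glucose; chromosome 6, 122677827 to 122692763) was at 443, 447 and 425 FPKM in the controls and at 1256, 1234 and 1261 FPKM after knockdown. The groups did not overlap for either gene, with all shCTCF samples low for Slc2a1 and high for Slc2a3. The log2 differences were -1.14 (SE 0.07) and 1.51 (SE 0.02).

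The share of Slc2a3 in the summed FPKM of both transporters went from 68.4% ± 1.45 to 93.2% ± 0.168 (SD, n = 3 each). Because Slc2a3 was already the more abundant of them, the sum was higher too, 641 ± 27.2 FPKM in the controls and 1342 ± 13.0 FPKM in the shCTCF group (SD, n = 3 each), 2.09 times the control. The lactate exporter Slc16a3 (MCT4) was at 74.4, 76.0 and 73.9 FPKM in the controls and at 56.8, 44.7 and 47.2 FPKM in the shCTCF group, lower in all 3 samples.

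The 14 glycolytic enzymes had a median log2 difference of -1.53, or -1.35 relative to the median of all genes. The values of 13 were lower in all 3 shCTCF samples, including Pfkp, whose log2 difference of -0.13 turned to 0.050 with scaling to a common median, and Hk1 was higher (45.8% of all genes were lower and 30.8% higher in this way, or 38% and 37.5% with that scaling). Their summed level was 8710 ± 694 FPKM in the controls and 3444 ± 90.6 FPKM in the shCTCF group (SD, n = 3 each), 2.53-fold lower. When the members that catalyse the same step were added up, the sum was lower in every shCTCF sample at each of the 10 steps, by 1.35-fold at the hexokinase step to 5.61-fold at the phosphoglycerate mutase step.

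The hexokinases trap glucose in the cell by phosphorylation, and the inducible and the constitutive form differed in direction. Hk2 (chromosome 6, 82675021 to 82724448), the form that many tumour and stem cells induce, was at 80.3, 85.7 and 77.0 FPKM in the controls and at 16.7, 17.7 and 16.8 FPKM after knockdown. Hk1, the form that most tissues keep on, was at 93.0, 98.1 and 90.2 FPKM in the controls and at 118, 114 and 106 FPKM after knockdown. The Hk2 values were 4.75-fold lower and those of Hk1 1.20-fold higher, and neither overlapped between the groups. Hk1 went from 53.7% ± 0.287 to 86.8% ± 0.697 of the summed hexokinase FPKM (SD, n = 3 each). On counts Hk1 kept no more than 32 fragments in a sample, since fragments over its 2 overlapping accessions were not assigned, and those kept, scaled to the total of the library (CPM), were lower after knockdown (3.84 ± 0.964 and 2.02 ± 0.813 CPM, SD, n = 3 each), opposite to FPKM.

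Phosphofructokinase, the committed step of glycolysis, is built from liver, muscle and platelet type subunits. The liver type subunit Pfkl was at 130, 159 and 128 FPKM in the controls and at 22.9, 20.8 and 21.1 FPKM after knockdown, 6.44-fold lower. The muscle type subunit Pfkm was at 25.5, 29.6 and 25.5 FPKM and then at 6.81, 7.10 and 6.49 FPKM, 3.95-fold lower. The platelet type subunit Pfkp lay close to its control level, with means of 167 ± 16.6 and 152 ± 3.14 FPKM (SD, n = 3 each), a gap smaller than the SD of the controls. On counts Pfkp was lower without overlap, at 126 ± 1.06 and 82.4 ± 3.17 CPM (SD, n = 3 each), 1.53-fold. On FPKM its share of the 3 subunits went from 50.2% ± 0.506 to 84.2% ± 0.786 (SD, n = 3 each).

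The bifunctional PFKFB enzymes set the level of fructose 2,6-bisphosphate, the strongest activator of phosphofructokinase. Pfkfb3, the form with high kinase activity, was at 22.9, 18.1 and 21.1 FPKM in the controls and at 37.8, 37.6 and 36.0 FPKM after knockdown, 1.79-fold higher with no overlap. Pfkfb4 was at 4.59 ± 0.867 and 3.21 ± 0.051 FPKM (SD, n = 3 each), lower in all 3 shCTCF samples.

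**Figure D2:**
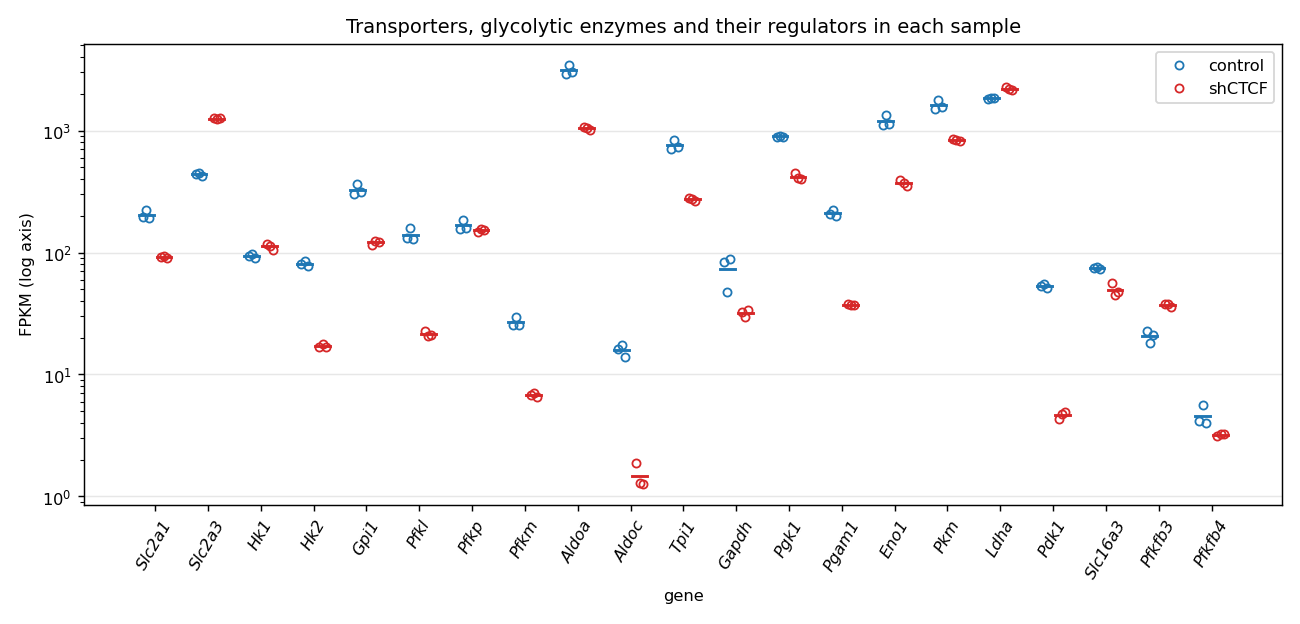
FPKM on a log axis of the 21 members that transport glucose or lactate or that run or regulate glycolysis, in each of the 3 control (blue) and 3 shCTCF (red) samples; circles are samples and lines the group means. The red circles lie under the blue ones for the enzymes from Gpi1 to Pkm, closest for Pfkp (152 against 167 FPKM, an order that turned with scaling to a common median), and above them for Slc2a3, Hk1, Ldha and Pfkfb3.

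The steps between the phosphofructokinase and pyruvate kinase reactions were lower throughout. Aldolase A (Aldoa), the most abundant member in the controls, was at 2903, 3448 and 3036 FPKM in the controls and at 1060, 1050 and 1018 FPKM after knockdown. Aldoc, the brain type aldolase, was at 16.2, 17.4 and 14.0 FPKM and then at 1.89, 1.28 and 1.26 FPKM. The fold of Aldoc was the larger of the aldolases (10.8-fold against 3.00-fold), but it made up less than 1% of their summed FPKM in every sample, since Aldoa held between 99.4% and 99.9%.

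Gpi1, which converts glucose 6-phosphate into fructose 6-phosphate, was at 302, 366 and 312 FPKM in the controls and at 116, 125 and 123 FPKM after knockdown. Tpi1, which interconverts the triose phosphates, was at 711, 834 and 730 FPKM and then at 280, 275 and 262 FPKM. Phosphoglycerate kinase Pgk1, the enzyme of the earlier ATP-yielding step, was at 891, 904 and 889 FPKM and then at 446, 406 and 399 FPKM. These 3 enzymes were between 2.14-fold and 2.79-fold lower, and no shCTCF sample reached a control.

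Pgam1, which moves the phosphate within phosphoglycerate, was at 206, 224 and 200 FPKM in the controls and at 37.7, 37.4 and 37.0 FPKM after knockdown, 5.61-fold lower. Eno1, the ubiquitous enolase, was at 1110, 1333 and 1125 FPKM and then at 390, 370 and 353 FPKM, 3.21-fold lower. The exons of Eno1 overlap those of Eno1b on the same strand at chromosome 4 in the deposited annotation, and the fragments of both cannot be told apart. On counts Eno1 held at most 2 fragments in a sample, while Eno1b held 5002, 1463 and 5292 in the controls and 1613, 1275 and 1681 after knockdown. The summed FPKM of both was 3.22-fold lower.

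Gapdh, the dehydrogenase of the sixth step, is also the gene to which the study's qRT-PCR values were referred. It was at 84.3, 47.4 and 88.9 FPKM in the controls and at 32.6, 29.5 and 33.8 FPKM after knockdown, 2.30-fold lower, with the lowest control still above every shCTCF value. The level is uncertain, since 1 of its 2 accessions was listed at 0 FPKM in all 6 samples and the count table held 9, 5 and 16 fragments in the controls and 1, 0 and 1 after knockdown. The primers of the study are shown because they tell which part of the transcript its reference measurement read. Both matched the 2 accessions on the minus strand and bounded a product of 220 bases, with the forward primer at mm9 chr6:125112309-125112328 and the reverse primer at chr6:125111999-125112018.
Gapdh forward primer: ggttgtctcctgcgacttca
Gapdh reverse primer: tagggcctctcttgctcagt

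Pyruvate kinase, the last step, is made from Pkm in an M1 form or an M2 form, which include either of a pair of neighbouring exons; M2 is known as the form of proliferating cells. Pkm was at 1498, 1770 and 1547 FPKM in the controls and at 860, 834 and 825 FPKM after knockdown, 1.91-fold lower in mean and lower in every sample. The alternative exons, on the plus strand of mm9 at chr9:59522836-59523002 and chr9:59523375-59523541, are printed because they are the only sequence that separates the forms. Each has 167 bases, 103 of which are identical (61.7%), and capitals mark the bases that differ.
Pkm M1 exon: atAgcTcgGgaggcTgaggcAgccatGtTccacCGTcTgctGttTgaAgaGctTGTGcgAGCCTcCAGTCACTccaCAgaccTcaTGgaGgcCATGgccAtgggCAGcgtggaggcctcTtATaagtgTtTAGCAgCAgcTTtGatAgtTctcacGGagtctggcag
Pkm M2 exon: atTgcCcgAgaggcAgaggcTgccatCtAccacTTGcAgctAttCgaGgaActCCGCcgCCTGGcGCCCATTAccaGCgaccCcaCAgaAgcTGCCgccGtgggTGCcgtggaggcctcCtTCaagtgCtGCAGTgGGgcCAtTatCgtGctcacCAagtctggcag

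Fragments assigned to the M1 accession were 30.3%, 31.1% and 33.1% of those assigned to either form in the controls and 23.8%, 22.8% and 30.2% after knockdown. The means were 31.5% ± 1.47 and 25.6% ± 4.05 (SD, n = 3 each), and M2 was the major form in all 6 samples. The shCTCF group lay below the controls, but its replicate 3 at 30.2% was next to the lowest control at 30.3%, and the 95% Wilson intervals of these samples, 26.4% to 34.4% and 27.8% to 32.8%, overlapped. The shares rest on 354 to 1317 fragments per sample, with 354 in control replicate 2, because fragments over the shared exons were not assigned, and the intervals cover counting error only. By FPKM, M1 made up 11.5%, 10.1% and 12.8% of Pkm in the controls. It held 11.5% and 12.9% in shCTCF replicates 2 and 3, while it was listed at 0 in replicate 1. The groups thus overlapped on FPKM, where the share was also lower than on fragments, and no difference in the choice of exon is read from these values.

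The members that decide the fate of pyruvate differed in direction. Ldha, the lactate dehydrogenase subunit that favours lactate, was at 1798, 1864 and 1860 FPKM in the controls and at 2285, 2181 and 2154 FPKM after knockdown, 1.20-fold higher with no overlap. On counts Ldha kept at most 35 fragments in a sample, and the groups overlapped there, with a mean that was lower after knockdown. Pdk1, a kinase that shuts pyruvate dehydrogenase and so keeps pyruvate out of mitochondria, was at 53.4, 55.6 and 51.5 FPKM and then at 4.33, 4.73 and 4.91 FPKM. Its 11.5-fold lower mean was the largest fold among the members with FPKM above 0 in all samples.

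**Figure D3:**
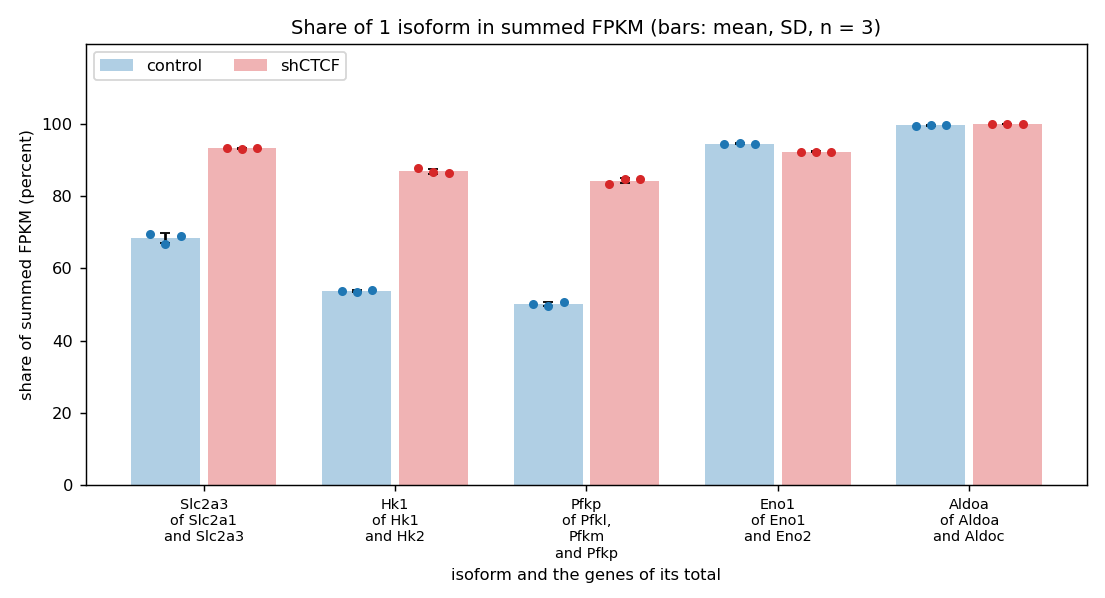
Share of 1 gene in the summed FPKM of related genes chosen for it, in percent, for control (blue) and shCTCF (red). The totals hold Slc2a1 and Slc2a3, Hk1 and Hk2, Pfkl, Pfkm and Pfkp, Eno1 and Eno2, or Aldoa and Aldoc, and leave out other genes of these families. Bars are means, error bars SD (n = 3) and points samples. Slc2a3 (68.4% to 93.2%), Hk1 (53.7% to 86.8%) and Pfkp (50.2% to 84.2%) hold a larger share after knockdown in every sample, while Eno1 of Eno1 and Eno2 (94.5% and 92.2%) and Aldoa stay above 90%.

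Among the HIF factors, Hif1a (chromosome 12, 75002311 to 75048541) was at 40.7, 32.1 and 40.4 FPKM in the controls and at 77.5, 72.3 and 71.0 FPKM after knockdown. This was a log2 difference of 0.95 (SE 0.12), with every shCTCF value above every control. Its partner Arnt was at 26.8, 27.0 and 24.2 FPKM and then at 17.2, 18.0 and 16.8 FPKM, lower in all 3 samples. Epas1, the HIF-2 alpha gene, was listed at 0 in 4 of the 6 samples and at 0.017 FPKM in control replicate 1 and 0.021 FPKM in shCTCF replicate 2, with 1 count in each of these. Both counts lie below the 3 counts taken as the detection floor, so its mRNA was not detectable at this depth.

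The oxygen-sensing members stood on the opposite side of Hif1a. Egln1 (PHD2, the main HIF prolyl hydroxylase) was at 59.8, 59.0 and 59.9 FPKM in the controls and at 13.5, 12.5 and 12.2 FPKM after knockdown, 4.68-fold lower. Egln3 (PHD3, itself a HIF target; chromosome 12, 55279968 to 55304861) was at 71.4, 69.0 and 70.1 FPKM and then at 9.25, 8.55 and 10.7 FPKM, 7.37-fold lower. Vhl, the substrate adaptor of the ubiquitin ligase for HIF alpha, was at 10.9, 12.3 and 10.9 FPKM and then at 5.53, 4.85 and 5.03 FPKM, 2.21-fold lower. In none of the 3 genes did a shCTCF sample reach the lowest control on FPKM, and 45.8% of all genes were lower in this way (38% with scaling to a common median). On counts Egln1 held only 39, 2 and 43 fragments in the controls and 7, 6 and 2 after knockdown, and its groups overlapped in CPM.

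**Figure D4:**
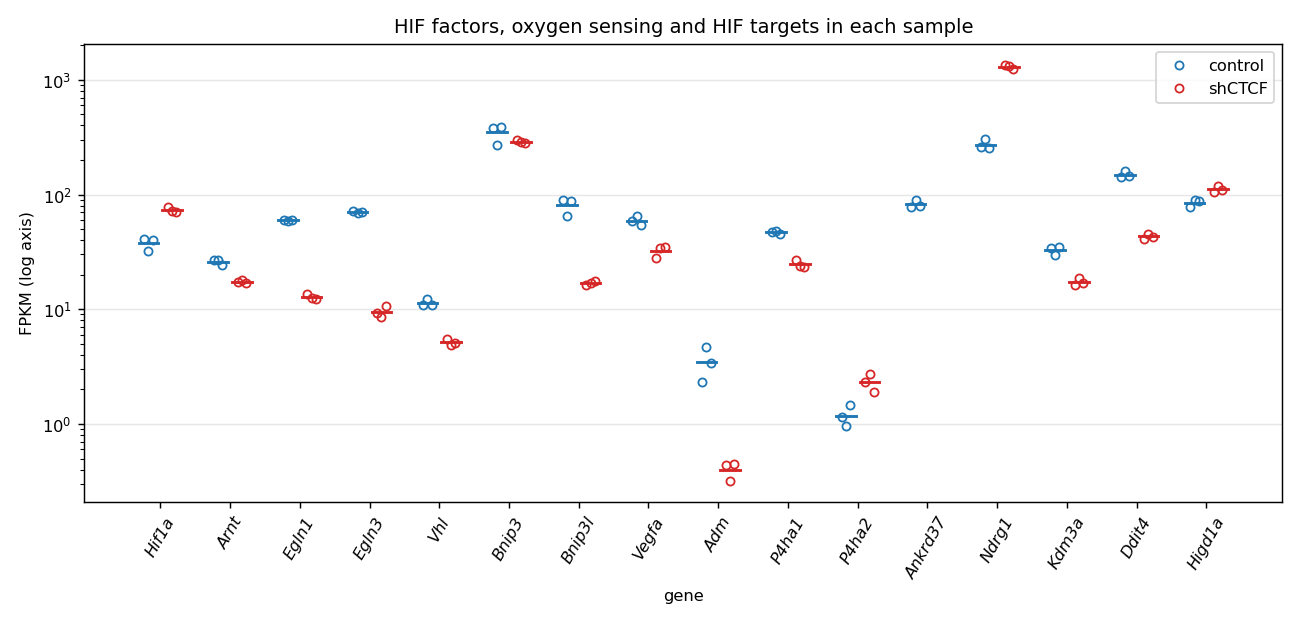
FPKM on a log axis of 16 members of the HIF system in the 3 control (blue) and 3 shCTCF (red) samples; circles are samples and lines group means, and the 3 shCTCF values of Ankrd37, listed at 0, are not drawn. Egln1, Egln3, Vhl and Bnip3l lie well under their controls, Hif1a and Ndrg1 lie above them, and the circles of Bnip3 overlap.

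The 12 HIF target genes among the members went in both directions. Of the 11 with at least 1 FPKM, 7 were lower and 3 higher in all shCTCF samples and Bnip3 overlapped, with a median log2 difference of -0.90. Among all genes 45.8% were lower and 30.8% higher in this way. Ndrg1 (chromosome 15, 66760880 to 66801203), a stress- and differentiation-responsive gene, was the member that was higher by most, at 257, 304 and 257 FPKM in the controls and at 1350, 1308 and 1251 FPKM after knockdown. Its mean was 4.78-fold higher. Higd1a, a small mitochondrial protein of the respiratory chain, was higher by less (85.1 ± 6.24 and 111 ± 6.44 FPKM, SD, n = 3 each).

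Ankrd37 (chromosome 8, 47082262 to 47085204), a small ankyrin repeat gene, was the member with the largest difference, at 78.1, 89.1 and 79.3 FPKM in the controls and listed at 0 FPKM in every shCTCF sample. An exact 0 in this table can be a failed estimate, as 18 genes with a median over 20 FPKM were listed at 0 in 1 or 2 samples. The count table held fragments in all samples, 996, 303 and 1040 in the controls and 20, 15 and 24 after knockdown. In CPM these were 160 ± 17.5 and 3.25 ± 0.381 (SD, n = 3 each), 49.1-fold lower. The last exon of Ankrd37 overlaps Ufsp2 on the opposite strand at chr8:47082262-47082310, where fragments were not assigned to either gene, and Ufsp2 itself fell (52.3 ± 1.19 and 19.5 ± 1.42 FPKM, SD, n = 3 each, limma adjusted p 2.1e-06).

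The mitophagy receptors Bnip3 and Bnip3l, relatives that mark mitochondria for degradation, differed from each other. Bnip3l was at 89.6, 64.4 and 88.1 FPKM in the controls and at 16.3, 17.0 and 17.6 FPKM after knockdown, 4.75-fold lower. Bnip3 was at 383, 272 and 388 FPKM and then at 298, 285 and 282 FPKM, where only control replicate 2 lay below the shCTCF values. Without this sample the shCTCF values of Bnip3 were all lower than the controls.

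The secreted factors were lower. Vegfa, the growth factor of blood vessels, was at 58.2, 64.4 and 54.3 FPKM in the controls and at 28.1, 34.2 and 34.6 FPKM after knockdown, 1.83-fold lower. Adm, the vasodilator peptide adrenomedullin, was at 2.33, 4.66 and 3.37 FPKM and then at 0.435, 0.317 and 0.447 FPKM. At such low FPKM the pseudocount compresses the log2 difference of Adm, which was -1.64 with a pseudocount of 1 and -2.79 with 0.1. The 2 collagen prolyl hydroxylase subunits differed in direction, with P4ha1 at 47.3, 47.6 and 45.6 FPKM and then at 26.8, 24.0 and 23.2 FPKM, and P4ha2, a gene of low level, at 1.14, 0.951 and 1.45 FPKM and then at 2.30, 2.71 and 1.91 FPKM.

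The stress-induced mTOR inhibitor Ddit4 was at 142, 160 and 144 FPKM in the controls and at 41.2, 45.5 and 43.0 FPKM after knockdown, 3.44-fold lower. The histone H3K9 demethylase Kdm3a was at 34.0, 29.7 and 35.2 FPKM and then at 16.1, 18.6 and 17.0 FPKM, 1.91-fold lower, and neither gene overlapped between the groups. The FPKM of Kdm3a were spread over 3 of its 4 accessions, each listed at 0 in some samples, and its log2 difference was -0.90 summed and -2.35 on the highest accession alone. Car9, a carbonic anhydrase used as a marker of hypoxia, was listed at 0 FPKM in 4 samples. Its counts were 47, 11 and 51 in the controls and 4, 6 and 15 after knockdown, which in CPM was 6.97 ± 0.392 and 1.34 ± 0.787 (SD, n = 3 each). Its exons overlap those of Arhgef39 on the opposite strand, which fell in FPKM (11.6 ± 0.993 and 1.65 ± 0.317, SD, n = 3 each, limma adjusted p 2.1e-06).

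The count table served as a second measurement for the members with 1 accession, which cannot lose fragments to another accession of the same gene. Of these 18 members 16 passed the filter for counts, and all 16 had the same direction on counts and FPKM. For the 14 of them without an FPKM of 0, the log2 differences from edgeR and from FPKM were apart by 0.04 to 1.27, most for Adm, and the median of counts minus FPKM was 0.16. Of the 21 members with more than 1 accession 7 passed the filter, of which Hk1 and Ldha had opposite directions on counts and FPKM, and 9 members of any kind had at most 3 counts in every sample. Both tables come from the same libraries and are not independent. Car9 and Ankrd37, which had FPKM of 0 in some samples, had log2 differences of -2.18 and -5.41 on counts and of -0.30 and -6.38 on FPKM. The plot of counts against FPKM shows most of the 16 members near the line of equal values, with Adm, Car9 and Ankrd37 away from it.

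**Figure D5:**
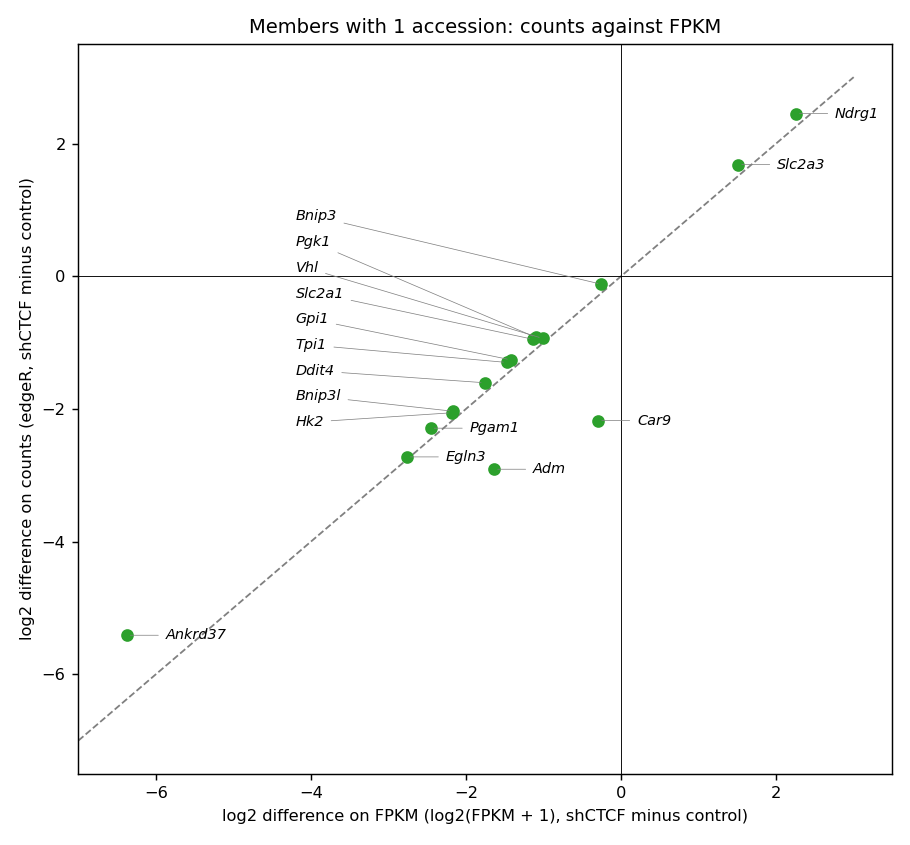
Log2 difference (shCTCF minus control) on counts from edgeR against that on log2(FPKM + 1), for the 16 members with 1 accession that passed the count filter; each point is a gene and the dashed line marks equal values. Slc2a3 and Ndrg1 lie at the upper right and the other 14 below 0 on both axes, with Adm (-2.91 on counts) and Car9 (-2.18 on counts) under the line.

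HIF binds DNA at a short core, ACGTG, within hypoxia response elements, and the promoters of the members were searched for it in RefSeq windows of assembly GRCm38.p6 (250 bases before to 50 after each transcript start, both strands, so that a CACGTG counts for each strand). Of the 39 members 35 had a window, 51 windows in all, and Bnip3l, Epas1, Ndrg1 and Slc2a3 had none. The core was in 27 of the 51 windows (52.9%), at least once in 24 of the 35 members, and in 19.6% of the 32851 windows of all genes. The variant GCGTG was in 29 of the 51 windows (56.9%) and in 32.4% of all. Windows of a gene can overlap, and the members include genes known as HIF targets, so these shares are a description.

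The 250 bases before the start are printed for Ldha, which had the most matches and was higher after knockdown on FPKM but not on counts. They are also printed for Ankrd37 and Hk2, which were lower on both. Capitals mark ACGTG or its reverse complement CACGT. Ldha lies on the plus strand at chr7:46845554-46845803, Ankrd37 on the minus strand at chr8:45999851-46000100 and Hk2 on the minus strand at chr6:82774455-82774704 (all GRCm38.p6).
Ldha: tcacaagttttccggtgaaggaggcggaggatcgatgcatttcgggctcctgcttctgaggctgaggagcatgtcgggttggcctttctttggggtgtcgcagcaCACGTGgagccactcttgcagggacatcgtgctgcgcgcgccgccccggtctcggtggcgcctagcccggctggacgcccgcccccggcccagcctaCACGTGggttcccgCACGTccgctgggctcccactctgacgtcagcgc
Ankrd37: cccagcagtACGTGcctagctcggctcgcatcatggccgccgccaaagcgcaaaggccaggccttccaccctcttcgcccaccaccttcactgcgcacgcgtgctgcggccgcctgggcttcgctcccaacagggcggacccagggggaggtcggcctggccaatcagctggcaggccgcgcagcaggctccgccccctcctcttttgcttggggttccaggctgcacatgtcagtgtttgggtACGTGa
Hk2: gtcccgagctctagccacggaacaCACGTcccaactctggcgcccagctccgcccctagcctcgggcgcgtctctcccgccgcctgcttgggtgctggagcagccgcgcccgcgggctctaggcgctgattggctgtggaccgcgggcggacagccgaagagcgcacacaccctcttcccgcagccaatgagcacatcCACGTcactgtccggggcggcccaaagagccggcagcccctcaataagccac
Both genes that were lower held 2 matches each, and Ldha held 5. Nothing about direction is read from these matches, since Slc2a3 and Ndrg1, the members that were higher by most, had no window. Binding of HIF at these or other sites was not tested. Pdk1, whose mean was 11.5-fold lower, held no ACGTG in its 2 windows, and Adm and Pfkl, which were lower too, held none either. All of them held the variant GCGTG, with 2 matches in 1 window of Pdk1, 2 in that of Adm and 1 in that of Pfkl.

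Other genes of the same pathways, which are not members, were tested with limma on log2(FPKM + 1) over all 9976 genes. Of all these genes 28.8% rose and 44.2% fell at an adjusted p under 0.05. The lists were chosen with earlier results of these data known, so nothing is read from their tallies against these shares. Of 22 other glycolysis isozymes, transporters and regulators 9 were tested, of which 3 rose and 6 fell. Slc16a1 (MCT1, the lactate and pyruvate transporter) fell from 38.3 ± 4.82 to 11.8 ± 1.09 FPKM (SD, n = 3 each, log2 difference -1.62, adjusted p 7.6e-06). The neuronal enolase Eno2 and the muscle enolase Eno3 fell too (log2 differences -1.13 and -1.11, adjusted p 1.1e-05 and 0.00073), by more when only the highest accession was used (-2.17 and -1.70), and Eno2 had a log2 difference of -2.35 on counts (edgeR adjusted p 4.1e-05). Tigar, which lowers fructose 2,6-bisphosphate, rose from 2.41 ± 0.307 to 5.19 ± 0.740 FPKM (SD, n = 3 each, log2 difference 0.85, adjusted p 0.00048), with a log2 difference of 1.44 on counts. Lack of overlap between the groups was a condition for naming a gene from these lists, so it adds no support.

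Of 8 genes of the pentose phosphate pathway, which branches off at glucose 6-phosphate and yields NADPH and ribose, 5 fell, 1 rose and 2 did not pass the threshold. The entry enzyme G6pdx fell from 43.3 ± 1.59 to 11.7 ± 0.616 FPKM (SD, n = 3 each, log2 difference -1.80, adjusted p 5.2e-07) and transketolase Tkt from 212 ± 16.1 to 64.7 ± 1.53 FPKM (SD, n = 3 each, log2 difference -1.69, adjusted p 5.7e-07). Pgls, the lactonase of the second step, and the isomerase Rpia fell too (log2 differences -1.78 and -1.28, adjusted p 8.3e-06 and 3.2e-06). The median log2 difference of the 8 genes was -1.12.

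Of 13 genes of pyruvate entry into mitochondria 11 were tested, of which 6 rose and 4 fell. Pcx, the carboxylase that makes oxaloacetate from pyruvate, rose from 36.5 ± 3.15 to 146 ± 4.31 FPKM (SD, n = 3 each, log2 difference 1.97, adjusted p 4.0e-07). Pdp1, the phosphatase that activates pyruvate dehydrogenase, rose by 0.77 on the log2 scale (adjusted p 0.013), a call lost without shCTCF replicate 3 (adjusted p 0.051), and its log2 difference was 1.85 on the highest accession alone. The dehydrogenase subunits Dld and Pdha1 fell (log2 differences -0.67 and -0.53, adjusted p 0.0092 and 0.00020), and Dld had -0.90 without control replicate 2. The calls in this list changed with single samples. Without control replicate 1, control replicate 3 or shCTCF replicate 2 there were 4 that rose and 2 that fell, without control replicate 2 there were 6 and 5, and without shCTCF replicate 3 the balance turned to 2 and 3. On counts 8 genes were tested, of which 3 rose and 3 fell with edgeR, or 2 and 5 when scaled by library size only.

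Of 14 further regulators of HIF 12 were tested, of which 3 rose, 1 fell and 8 did not pass the threshold, and without control replicate 2 the calls were 7. Cited2, which competes with HIF-1 alpha for the coactivator p300, rose from 188 ± 1.75 to 440 ± 9.94 FPKM (SD, n = 3 each, log2 difference 1.22, adjusted p 5.9e-07). Siah1a, a ubiquitin ligase for prolyl hydroxylases, rose by 0.78 (adjusted p 0.0013) and Rbx1, the RING subunit of the VHL ligase, fell by 0.58 on the log2 scale (adjusted p 0.00052). Os9 rose by 0.92 on FPKM (adjusted p 2.9e-05) but had a log2 difference of 0.0025 on counts (edgeR adjusted p 0.996), so that its call held on FPKM only.

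Of 36 further HIF target genes 27 were tested, of which 16 fell and 10 rose, so that these too went in both directions. Hilpda, a lipid droplet protein, fell from 28.3 ± 3.69 to 4.29 ± 0.612 FPKM (SD, n = 3 each, log2 difference -2.47, adjusted p 1.6e-06). Gbe1, the glycogen branching enzyme, fell from 14.4 ± 1.62 to 1.81 ± 0.313 FPKM (SD, n = 3 each, log2 difference -2.45, adjusted p 1.6e-06). The cytokine Mif and the zinc finger gene Zfp395 fell as well (log2 differences -1.68 and -1.74, adjusted p 1.7e-07 and 1.6e-05), and Zfp395 had -2.44 with a pseudocount of 0.1. On counts 18 genes of this list passed the filter, of which 7 fell and 6 rose by edgeR at an adjusted p under 0.05, compared with 34.3% and 34.8% of all genes (69.1% in either direction).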

How the data were processed

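RNA-seq libraries (stranded mRNA kit) of 3 control and 3 shCTCF samples were used, and no sample was left out. The authors trimmed the reads and mapped them to mm9 with HISAT2 (4.8.2 in the submitters' processing notes). The deposited counts are whole fragments per RefSeq accession, made by the authors with featureCounts 1.6.2 without strand and without assignment of fragments over several accessions, so that genes with overlapping accessions lost most counts. The deposited FPKM values were calculated by the authors with Cufflinks 2.2.1 and normalized for depth. Accessions were given symbols with a RefSeq table (GRCm38.p6, names only; 41186 of 41388 rows of counts and 41685 of 41876 rows of FPKM), and values were summed per symbol.

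The members and lists were chosen with earlier results of these data known. Background and list genes were tested with limma 3.58.1 (trend, two-sided) on log2(FPKM + 1) at a mean of at least 1 FPKM, and on counts with edgeR 4.0.16 (quasi-likelihood, TMM, filterByExpr; R 4.3.3), with Benjamini-Hochberg adjustment over all genes and a threshold of 0.05. Both fits were tested on simulated data. Members with at least 1 FPKM in the higher group and group means at least 1.5-fold apart were given in every sample, together with Gapdh, Ankrd37, Hif1a, Vhl, Egln1, Epas1, Ldha and Pkm. From each list up to 4 genes past the threshold, without overlap and with at least 5 FPKM in the higher group, were named by the largest log2 difference. Total counts of 1686052 to 7044272 put 3 counts at 0.426 to 1.779 CPM of the total. Replicates differed by more than counting noise (chi-square per degree of freedom 2.07 to 8.17), and none was counted as a copy. Coordinates are mm9 from the count table, counted from 1, except the promoters (GRCm38.p6). Alternatives were other pseudocounts, filters, scalings, the highest row per symbol, the other table, DESeq2 1.42.0, the replicate block and each replicate left out.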

Additional observations from a re-analysis of the deposited data

How the results depend on the processing

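The log2 difference of Ctcf and the median of the members kept their sign under the alternatives run. The balance of rises and falls turned for pyruvate entry, from 6 and 4 to 2 and 3 without shCTCF replicate 3, and for 2-fold differences over all genes, from 13.4% higher and 18.7% lower to 16.5% and 13.8% with scaling to the same median. Over all genes past the threshold it was 28.8% higher and 44.2% lower on FPKM (limma), but 34.8% and 34.3% on counts (edgeR), where fewer genes were tested. The median log2 difference of the members was -0.92 with each sample scaled to the same median and -1.30 on the count table, where 23 members were tested. On counts 6 genes of pyruvate entry, 7 other HIF regulators and 13 other HIF targets passed the threshold, where fewer genes of the first and last list were tested. Pfkp turned from -0.13 to 0.050 with same-median scaling. With 1 replicate left out at a time, 6577 to 7919 genes on FPKM and 4610 to 5662 genes on counts passed the threshold, the log2 difference of Ctcf was -5.16 to -5.08, the median of the members -1.14 to -1.04, and 22 to 24 members differed at least 2-fold. The calls were then 7 to 9 for other glycolysis genes, 5 to 11 for pyruvate entry, 6 to 7 for the pentose phosphate pathway, 4 to 7 for HIF regulators and 23 to 26 for HIF targets. The cause was not tested. Same-numbered samples did not deviate together (correlations across genes of -0.041, 0.018 and 0.0395), so the numbers were not taken as pairs. With the replicate block 7137 genes on FPKM and 4889 on counts passed the threshold, and the median of the members stayed at -1.10. Levels of members with few assigned fragments, such as Gapdh, Hif1a and Vegfa, rest on FPKM alone, and the 3 samples per group and the shallow control replicate 2 limit the precision.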
